A study of Mus musculus with 17 samples.

Results

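The 7 pancreatic tumours with the fewest somatic calls in a mouse exome series were examined call by call. They were chosen by the number of calls alone: tumours with fewer than 20 calls in the deposited mutation table were kept, which took 7 of the 11 tumours and 77 of the 390 calls. All 7 came from mice 3 to 6, and the remaining 4 tumours, with 313 calls, came from mice 1 and 2. A call is a site at which the tumour differed from the pancreatic control sample of the same animal. The series covers 17 samples, 11 tumours and 6 controls, from 6 mice. The labels describe the tissue as pancreatic tumour or control pancreatic tissue, list no treatment, and give housing on standard chow. They give no genotype, strain, age or sex for any mouse, so whether an animal lacked the glucagon receptor is not known from them. Exome calls hold no expression values, so the labelled tissue could not be checked against marker genes.

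By its title, the series is about inactivating mutations of the glucagon receptor GCGR and neuroendocrine tumours that start from alpha cells. Alpha cells are the islet cells that secrete glucagon, which acts on the liver to release glucose and to break down amino acids. When glucagon signalling is lost, circulating amino acids rise and alpha cells multiply, a feedback in which the amino-acid-sensing kinase complex mTORC1 takes part. Human pancreatic neuroendocrine tumours are known for mutations in MEN1, DAXX, ATRX and genes of the mTOR pathway. The exome is the protein-coding part of the genome, and exome sequencing reads it after capture of exons.

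The number of calls per tumour, which chose these tumours and is given as a description, was 13, 15 and 17 in the 3 tumours of mouse 3. It was 14 in the tumour of mouse 4, 7 in that of mouse 5, and 6 and 5 in the tumours of mouse 6. The mean was 11 ± 4.86 calls (SD, n = 7 tumours). The tumour nearest to the threshold from inside had 17 calls, and the nearest outside it, tumour 2 of mouse 2, had 37. The deposited table held 402 lines, of which 12 (2.99%) were empty in the copy used, and the tumours they belong to are not known. Read depth is unknown, because the depth cells are empty, so call numbers cannot be weighed by it and allele fractions carry no interval. A gene with no call here is therefore not shown to be unmutated.

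The 77 calls lay at 74 distinct sites in 67 genes on 17 chromosomes. Protein-altering calls made up 74 of the 77 (96.1%, exact Clopper-Pearson 95% interval 89.0 to 99.2%). Of these, 67 were missense, which exchange 1 amino acid for another, and 7 were truncating. The truncating class comprised stop, frameshift, start-lost and essential splice-site changes. The other 3 calls were splice-region changes in Skint5, C4a and Sycp2. Deletions accounted for 4 calls and insertions for 0. In mice 1 and 2, 275 of 313 calls (87.9%) were protein-altering. Those 313 calls lay at 186 distinct sites, because the tumours of each of these mice share many sites, so pooled shares of mice 1 and 2 count such sites more than once. Intervals of shares cover counting error only, and calls of 1 tumour are not independent samples of a condition.

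The allele fraction, the share of reads at a site that carry the changed base, was low for most calls. It was under 10% for 50 of the 77 calls (64.9%) and 20% or more for 14 (18.2%, exact interval 10.3 to 28.6%). A heterozygous change carried by every cell of a pure diploid sample would give 50%. Tumour purity and copy number are not known here, so no call is named clonal or subclonal. A fraction of 20% or more is called the high band and a fraction under 10% the low band. Of the 14 calls in the high band, 7 were in mouse 4, 4 in mouse 3, 2 in mouse 5 and 1 in mouse 6.

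**Figure D1:**
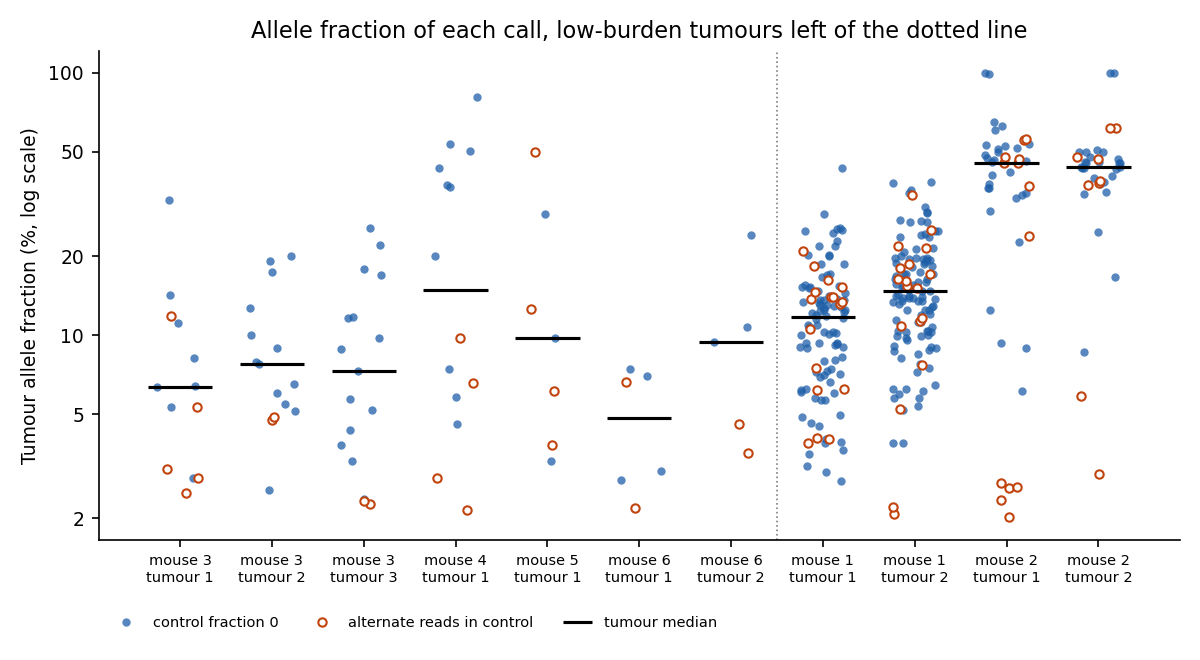
Tumour allele fraction of every call (percent, log scale) by tumour, with low-burden tumours left of the dotted line and tumours of mice 1 and 2 right of it. Filled points have a control fraction of 0, open points have alternate reads in the control, and the bar is the tumour median, which ran from 4.84% to 14.9% in the 7 low-burden tumours.

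Mouse 4 carried the calls with the highest fractions. In its single tumour the fractions ran from 2.15% to 81.3% with a median of 14.9%, and no call lay between 9.76% and 20%. The 7 calls of its high band all had a deposited quality score and a control fraction of 0. The 7 calls of its low band had no quality score, and 4 of them had alternate reads in the control.

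The highest of these was a frameshift in Cilp, which encodes a protein of the cartilage matrix, at 81.3% (chromosome 9, 65280130). It fell at residue 1170 of 1250, or 93.6% of the way along the protein. Cyp51, an enzyme of cholesterol synthesis, had A224S at 53.7% (chromosome 5, 4099206). Gm9913, a predicted gene, had L80F at 50.4% (chromosome 2, 125506510). All 3 values lie above the 50% that a heterozygous change in every diploid cell would give. With depth unknown, none of the 3 can be tested against 50%, and those of Cyp51 and Gm9913 lie close to it. A deletion of 1 base at a splice acceptor of Scel, which encodes the epithelial protein sciellin, stood at 43.6% (chromosome 14, 103605576, intron 27 of 30). Acan, which encodes the cartilage proteoglycan aggrecan, had H1938P at 37.5% (chromosome 7, 79111354, exon 13 of 17) and carried a variant database identifier. Syt6, a member of the synaptotagmin family of membrane-trafficking proteins, had R345W at 36.7% (chromosome 3, 103587753). Katnal2, related to a microtubule-severing enzyme, had A343V at 20%. None of the 7 genes was in the lists of alpha-cell and tumour genes described below.

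Of the 77 calls, only the Gm9913 site fell in a RefSeq promoter window, a stretch around a gene's start. The window is that of Fbn1, which encodes the extracellular matrix protein fibrillin, and the site lies 25 bases beyond the 5′ end of the gene in the RefSeq table and 72 bases upstream of the start site on which the window is set. The sequence is shown because the changed base sits where a run of T meets a run of A. It is RefSeq sequence of build GRCm38.p6, chr2:125506490-125506550, on the minus strand, which is the strand of Fbn1, and the capital marks the changed base.
Gm9913 site: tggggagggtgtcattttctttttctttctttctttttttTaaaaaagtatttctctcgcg
The changed base is the last of 8 T in a row and is followed by 6 A, and the change was of the T-to-A class. The call had a quality score of 1471 and a control fraction of 0. Whether the repeat bears on the call was not tested.

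Mouse 3 gave 3 tumours with 45 calls in all, and their high bands held different genes. In tumour 1 the fractions ran from 2.5% to 32.6% with a median of 6.36%. Its highest call was A12D in Rhox3g, a homeobox gene of a reproductive cluster at 32.6% (chromosome X, 37627820). Gbp9, of the interferon-induced guanylate-binding proteins, had E467A at 14.3%. A stop in the vomeronasal receptor gene Vmn2r114, G506*, stood at 11.8% in the tumour and 0.962% in the control. Iqsec2, an exchange factor for ARF GTPases at synapses, had R755Q at 11.1%. Only Gbp9 and Iqsec2 among these 4 had a quality score.

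Tumour 2 of mouse 3 ran from 2.57% to 20% with a median of 7.78%. Tmem91, a transmembrane protein gene, had G128W at 20% (chromosome 7, 25669477), the highest call of that tumour. A splice-region change in Skint5, of an immunoglobulin-like family expressed in skin and thymus, stood at 19.2%. The gene 4930549C01Rik, now named Tex46, had K33N at 17.4%. Wdfy4, which dendritic cells need for cross-presentation of antigen, had T2545N at 12.7%, and the olfactory receptor gene Olfr607 had F257I at 10%. Truncating calls in this tumour were a stop in Vmn2r101, G226*, at 5.47% and the loss of the start codon of the predicted gene Gm10718 at 4.76%, with 0.699% in the control.

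Tumour 3 of mouse 3 had the most calls of the 7 tumours, with fractions from 2.27% to 25.7% and a median of 7.29%. The olfactory receptor gene Olfr186 had I46S at 25.7% (chromosome 16, 59027769) with no quality score. Tmem74, whose product takes part in autophagy, had S221G at 22.1% (chromosome 15, 43866985) with a score of 1228. Dppa2, a gene of early embryos and pluripotent cells, had K160T at 17.9%. Wrn, a DNA helicase of the RecQ family, had R799C at 17.0%. A 4-base deletion across an exon edge of Mmadhc, which directs vitamin B12 within the cell, stood at 11.7%. It was annotated as a frameshift from residue 3 but also removes the start of the intron, so its effect on the reading frame is not known. Gab1, a docking protein that couples growth factor receptors to PI3K and RAS signalling, had V164F at 11.6%. All 6 had a control fraction of 0.

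The tumour of mouse 5 had 7 calls between 3.31% and 50%, with a median of 9.76%. Its highest call was a splice-region change in Sycp2, a gene of the meiotic synaptonemal complex, at 50% in the tumour and 4% in the control. That control fraction was the highest of the 77. The highest protein-altering call was P79L in the olfactory receptor gene Olfr1135 at 28.9% (chromosome 2, 87672130). Obox1, a homeobox gene of oocytes, had N32S at 12.6% in the tumour and 0.391% in the control, and was the only call with both a quality score and control reads.

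Mouse 6 gave the tumours with the fewest calls. Tumour 1 had 6 calls between 2.18% and 7.41%, so none reached 10%. Its highest were R312H in Pomt1, an enzyme that adds mannose to dystroglycan, at 7.41%, and E824V in Vps18, a subunit of the complexes that tether endosomes and lysosomes, at 6.98%. Prg4, which encodes the joint lubricant lubricin, had S646P at 6.64% in the tumour and 3.29% in the control. A 5-base deletion in Naa38, a subunit of an N-terminal acetyltransferase, stood at 2.80% and was annotated as a frameshift at residue 89 of 125. It spans the edge of an exon and removes the end of the intron before it, so its effect on the reading frame is not known. Tumour 2 had 5 calls between 3.56% and 24%. V426L in Thsd7a, a membrane protein with thrombospondin repeats, stood at 24% (chromosome 6, 12501131), and I144V in Lypd6b at 10.7%. The other 3 were V260M in the nuclear body gene Sp140 at 9.43%, V59I in Gm10801 at 4.58% and S70L in AW822073 at 3.56%.

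Links to alpha-cell tumour biology were read from 10 gene lists with 380 distinct genes, and 2 of these genes (0.526%) carried a protein-altering call. Mtor, the kinase at the core of mTORC1, had S1145P in tumour 3 of mouse 3 at 3.80% (chromosome 4, 148484660, exon 23 of 58, residue 1145 of 2549). The call had a quality score of 84 and a control fraction of 0. It was the only call among 52 genes of mTORC1 and amino acid sensing and among 28 genes of pancreatic neuroendocrine tumours, which include Mtor as well. Wrn R799C, described above, was the only hit among 37 DNA repair genes (chromosome 8, 33288886, exon 20 of 34, residue 799 of 1401). Both were in the same tumour, and in the other 6 tumours no listed gene was called. For comparison, 65 genes carried a protein-altering call in the 7 tumours, against 21900 protein-coding genes in the RefSeq table (0.297%). Called genes absent from that table were not left out of the 65.

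The remaining lists held no call in these tumours. They covered 36 genes of glucagon receptor and cAMP signalling, 46 of islet identity and hormone secretion, and 46 amino acid transporters and catabolic enzymes. They also covered 35 genes of cell cycle, p53 and apoptosis, 47 chromatin regulators and 39 genes of receptor tyrosine kinase and RAS signalling. A list of 41 genes of WNT, NOTCH, TGF-beta and Hippo signalling held no call either. The lists do not hold every gene of these themes. The docking protein gene Gab1 and the chromatin-remodelling subunit gene Actr6 carried calls and are in none of them. In mice 1 and 2, 4 of the 380 listed genes (1.05%) were hit, Akap9, Slc7a7, Smad3 and Tet3. There, 137 genes carried a protein-altering call, against 21900 in the RefSeq table (0.626%), again without leaving out called genes absent from that table. None of 20 marker genes of alpha, beta, delta, acinar, duct and B cells was called in the low-burden tumours.

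Alternate reads were present in the control for 21 of the 77 calls (27.3%, exact interval 17.7 to 38.6%), against 57 of 313 (18.2%) in mice 1 and 2. Per tumour they were 5 of 13, 2 of 15 and 2 of 17 in mouse 3, 4 of 14 in mouse 4, 4 of 7 in mouse 5, and 2 of 6 and 2 of 5 in mouse 6. In these 21 calls the median fraction was 4.58% in the tumour and 1.71% in the control. The ratio of tumour to control fraction ran from 1.23 to 32.6 with a median of 2.45, and it was under 2 in 6 calls. Pooled over mice, control reads went with low fractions. They were present in 13 of 23 calls under 5%, in 5 of 27 from 5 to 10% and in 2 of 13 from 10 to 20%. From 20 to 30% they were present in 0 of 6, and at 30% or more in 1 of 8. The share with control reads was higher under 10% than at 10% or more in mice 3, 4 and 6. Mouse 5 went the other way, with 2 of 4 calls under 10% and 2 of 3 at 10% or more.

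A quality score was listed for 25 of the 77 calls (32.5%), against 193 of 313 (61.7%) in mice 1 and 2. The 25 had a median fraction of 17.0%, and 1 of them had control reads. The 52 calls with no score had a median of 5.64%, and 20 of them had control reads. The deposited tier, which is read from a column name and whose meaning the sources used here do not give, was 2 for 19 calls. Of these, 10 had control reads, against 11 of the 58 calls of tier 1. A fraction of 10% or more was found for 27 calls, of which 19 had a quality score. In the pooled calls, score, tier, fraction and control reads thus varied together, and what sets them apart was not tested.

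**Figure D2:**
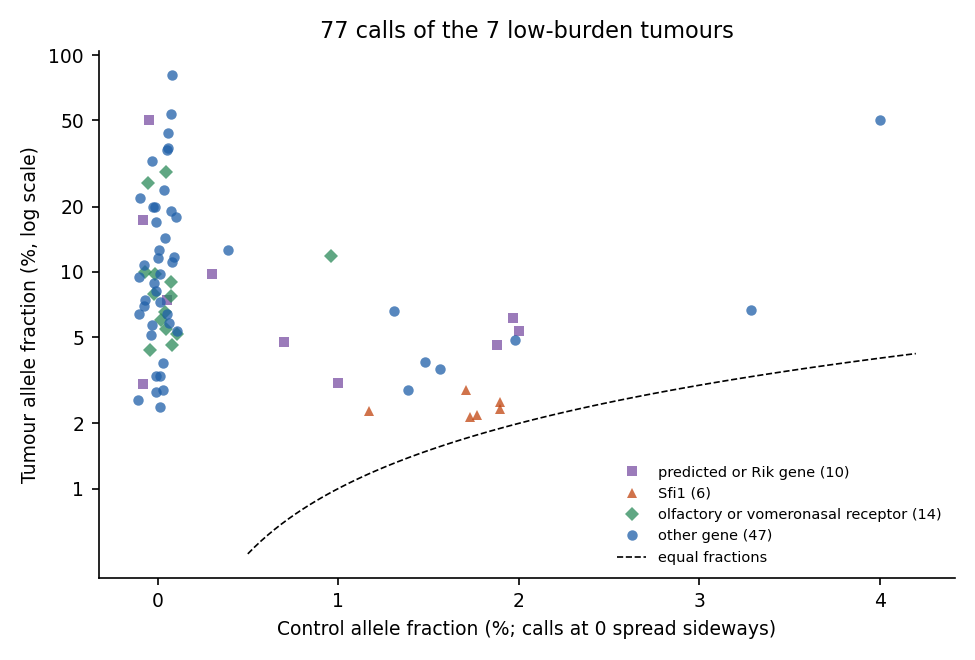
Tumour allele fraction (percent, log scale) against control allele fraction (percent) for the 77 calls of the 7 low-burden tumours, by gene class; the dashed curve marks equal fractions. All 6 Sfi1 calls lie near the curve with control reads, and 13 of the 14 receptor calls have a control fraction of 0.

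Receptor genes of large families, predicted and Rik genes, and Sfi1, classed by gene symbol, made up a good part of the calls. Olfactory and vomeronasal receptor genes, whose products detect odours and pheromones, held 14 of the 77 calls (18.2%), 8 olfactory and 6 vomeronasal. The share was 27 of 313 (8.63%) in mice 1 and 2, and such genes are 1465 of 21900 (6.69%) of the protein-coding genes in the RefSeq table. They were unevenly spread, with 7 of the 15 calls of tumour 2 of mouse 3, 11 of 45 in mouse 3 as a whole, 1 of 14 in mouse 4, 2 of 7 in mouse 5 and 0 of 11 in mouse 6. Their median fraction was 7.85%, 1 of the 14 had control reads, and none had a quality score. Predicted and Rik genes held another 10 calls, 6 of them with control reads, and Sfi1 held 6. Together these classes made 30 calls, of which 13 had control reads and 2 a quality score. In the other 47 calls, 8 had control reads and 23 a quality score. Reads from similar gene copies can align to one another, and the part this has in these calls was not tested.

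Sites found in more than 1 tumour were few and had low fractions. Sfi1, which encodes a centrosomal protein, had 6 calls in 4 tumours of 3 mice, all with control reads. A684E stood at 2.27% in tumour 3 of mouse 3 and 2.85% in mouse 4, with 1.17% and 1.71% in their controls. R488C stood at 2.5% and 2.33% in tumours 1 and 3 of mouse 3, with 1.90% in the control. R152Q stood at 2.15% in mouse 4 and 2.18% in tumour 1 of mouse 6, and was called in tumour 2 of mouse 1 as well. Across the 3 tumours the control fraction at that site lay between 1.73% and 1.88%. Gm10801 V59I, at 4.58% in tumour 2 of mouse 6, was called in tumour 1 of mouse 1 at 4.04%. All these fractions were under 5%, and all these sites had alternate reads in the control.

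Some genes were called more than once at different sites. AW822073 had D132N at 3.82% in mouse 5 and S70L at 3.56% in tumour 2 of mouse 6, both with control reads. Skint5 had G704V at 8.20% in tumour 1 of mouse 3 and the splice-region change in tumour 2, both with a control fraction of 0. Gm10801 also had S15L at 5.33% in tumour 1 of mouse 3, with 2% in the control. Gm21738 F40Y, at 7.45% in mouse 4, was in a gene that was called in mice 1 and 2 too, as were Gm10800, Muc4 and Vmn2r101 in at least 1 of those mice. Apart from the Sfi1 sites, no site was common to any pair of the 7 tumours.

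In 2 tumours a pair of calls lay within 100 bases of each other. Itgb2, the beta chain of the leukocyte integrins, had Y544D and S546C 6 bases apart in tumour 1 of mouse 3, at 6.42% and 6.36%. Vmn2r89 had F11L and S13F 5 bases apart in tumour 2 of mouse 3, at 6.02% and 7.78%. All 4 calls had a control fraction of 0. Whether the paired changes lie on the same reads cannot be read from the table.

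Substitutions, read from the pyrimidine of each base pair, numbered 73 in the low-burden tumours. C-to-T changes were the most frequent with 23 (31.5%, exact interval 21.1 to 43.4%), followed by C-to-A with 18 (24.7%, 15.3 to 36.1%). T-to-A made up 11, T-to-C 9, T-to-G 8 and C-to-G 4. In the 302 substitutions of mice 1 and 2, T-to-C led with 94 (31.1%), C-to-T followed with 76 (25.2%), and C-to-A made up 20 (6.62%). T-to-G ranged from 0 to 16.7% in mice 3 to 6, against 18.5 to 19.9% in mice 1 and 2. Among the low-burden C-to-A changes, 9 were C-to-A and 9 were G-to-T on the coding strand. C-to-A changes were not confined to low fractions, with 6 of the 24 substitutions at 10% or more and 12 of the 49 under 10%.

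**Figure D3:**
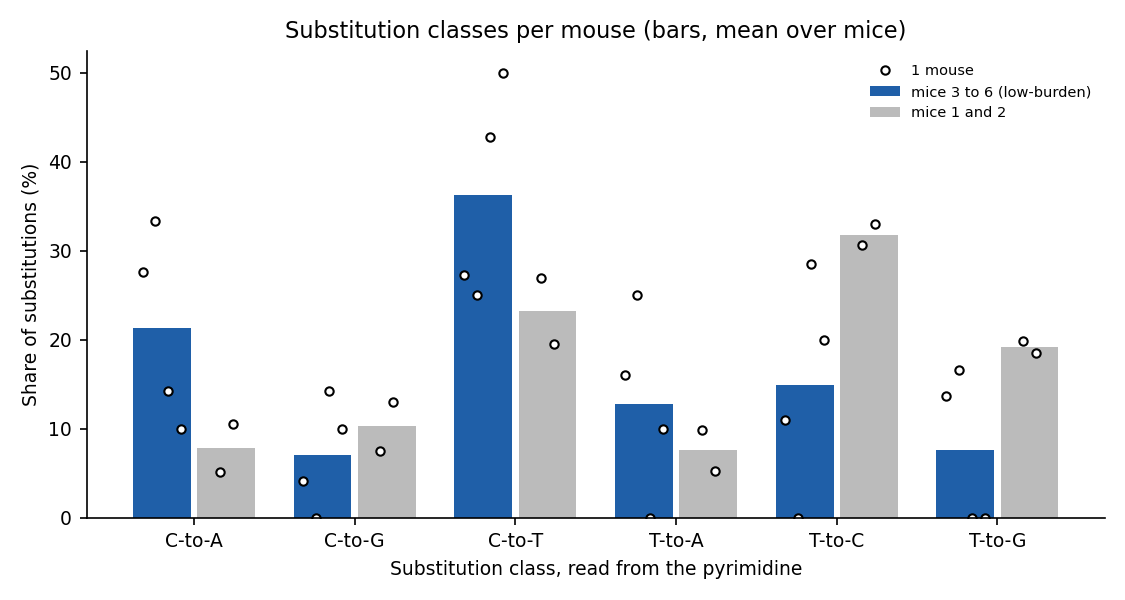
Share of substitutions (percent) in each of 6 classes, for mice 3 to 6 with low-burden tumours (left bar of each pair) and mice 1 and 2 (right bar). Bars are means over mice and points are single mice. The groups do not overlap in T-to-C and in T-to-G, and T-to-G was not among the measures tested.

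The amino acid changes allowed part of the sequence context to be read without a genome. Of the 23 C-to-T calls, 21 changed an amino acid, and in 10 of these, at 8 sites, every codon that fits places the changed base in a CpG. In 2 changed at the second codon base, the codon holds no CpG there. The proline-to-serine changes hold none either, since every codon that fits has C after the changed base. In the rest the codon does not settle it. CpG cytosines are often methylated and deaminate to thymine more readily than other cytosines. The 8 CpG sites included R755Q in Iqsec2, R779C in the nuclear pore gene Nup133, R799C in Wrn and R831H in the glucosidase gene Ganc. The others were R345W in Syt6, R312H in Pomt1, and R488C and R152Q in Sfi1. All 8 replaced arginine, an outcome of the method, since codons of arginine are nearly the only ones in which a CpG is certain. Their fractions spanned 2.15% to 36.7%.

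By the BLOSUM62 matrix, which scores how often 1 amino acid replaces another in related proteins, 36 missense calls had a score below 0, 14 a score of 0 and 17 a score above 0. The median was -1. The charge group of the residue changed in 26 of the 67, glycine was lost in 5 and proline was gained in 4.

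Further genes picked after their values were seen included Eef2, the elongation factor that moves the ribosome along mRNA. It had G97V at 2.86% in tumour 1 of mouse 3 and 1.39% in the control. Also in mouse 3, the transcription factor gene St18 had E682G at 2.86%, the synaptic adhesion gene Nlgn2 had G193A at 8.89% and the chromatin-remodelling subunit gene Actr6 had G288D at 5.32%. In mouse 4, Clcn3, a chloride-proton exchanger of endosomes and vesicles, had T514P at 5.80%, and the nuclear body gene Sp110 had P142T at 6.58% with 1.31% in the control. In mouse 5, the gasdermin gene Gsdmc had I38M at 3.31%.

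Variant database identifiers were listed for 4 of the 77 calls, against 60 of 313 in mice 1 and 2. The 4 were Acan H1938P, Vmn2r89 S13F, Calcoco2 K306E and Muc4 Y994H. Calcoco2, an autophagy receptor gene, stood at 4.85% in the tumour and 1.98% in the control, and the mucin gene Muc4 at 2.38% with a control fraction of 0.

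The low-burden mice were set against mice 1 and 2 in 8 measures that did not choose the tumours, with the mouse as replicate and tumours of a mouse averaged first. The 15 ways to choose 2 of 6 mice allow no exact permutation p below 0.0667, so no difference could pass 0.05. The median allele fraction per mouse was 7.14%, 14.9%, 9.76% and 7.14% in mice 3, 4, 5 and 6, against 13.2% and 44.6% in mice 1 and 2. The mean was 9.73% ± 3.65 in mice 3 to 6 (SD, n = 4) and 28.9% ± 22.2 in mice 1 and 2 (SD, n = 2), a difference of -19.2 percentage points (exact two-sided permutation p = 0.133, adjusted p = 0.267). The groups overlapped, since mouse 4 lay above mouse 1. Without mouse 2 the difference was -3.51 points, without mouse 1 it was -34.9, and over calls of 10% or more it was -3.87.

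Tier 2 calls made up 22.4%, 14.3%, 28.6% and 45% of calls in mice 3, 4, 5 and 6, against 12.0% and 7.73% in mice 1 and 2, and the groups did not overlap. The means differed by 17.7 points (exact permutation p = 0.2, adjusted p = 0.267), by 6.85 points among calls with a control fraction of 0 and by -3.47 among calls of 10% or more. Calls with control reads averaged 35.9% ± 15.5 in mice 3 to 6 and 21.2% ± 8.63 in mice 1 and 2 (exact permutation p = 0.333, adjusted p = 0.381). The difference of 14.7 points was 0.0121 points among calls of 10% or more, 6.69 in tier 1, 7.63 without mouse 5 and 8.61 without mouse 1. Database identifiers averaged 3.39% ± 3.92 in mice 3 to 6 and 37.3% ± 52.1 in mice 1 and 2 (exact permutation p = 0.2, adjusted p = 0.267). Within mice 1 and 2 they made up 0.463% of calls in mouse 1 and 74.1% in mouse 2, and without mouse 2 the difference turned to 2.92 points. Truncating calls averaged 7.90% ± 5.90 in mice 3 to 6 and 5.97% ± 1.33 in mice 1 and 2 (exact permutation p = 0.667, adjusted p = 0.667). The difference of 1.93 points ran from 0.0059 in tier 1 to 4.49 without predicted genes, receptor genes and Sfi1. It was -0.198 without mouse 4, 0.993 without mouse 2 and 4.56 without mouse 5.

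**Figure D4:**
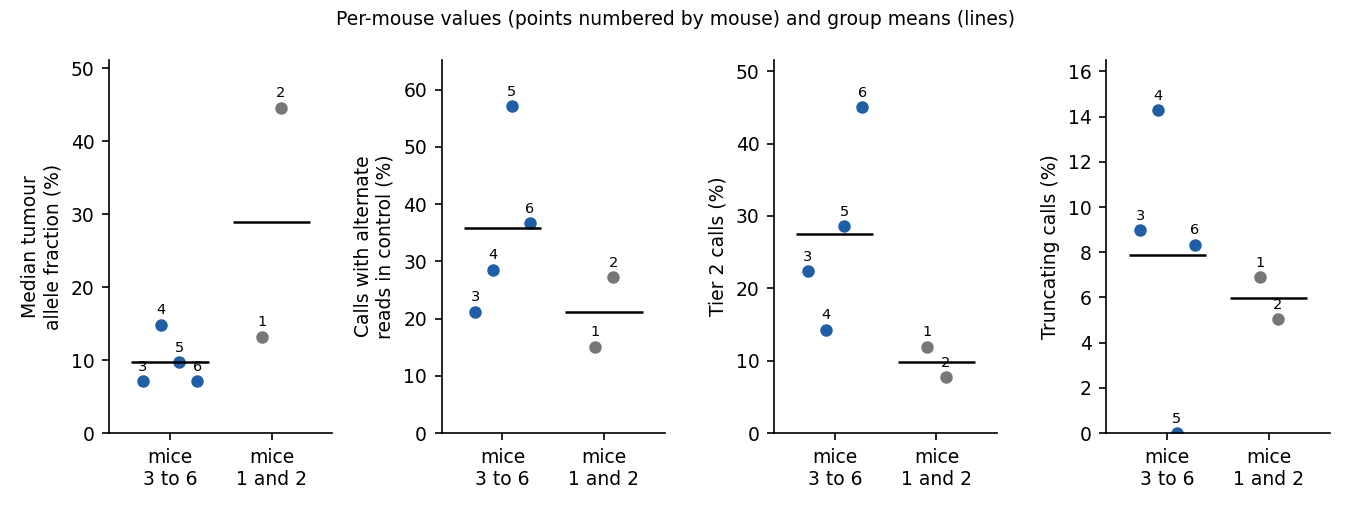
Per-mouse values in percent of the median allele fraction, calls with alternate reads in the control, tier 2 calls and truncating calls, for mice 3 to 6 (left in each panel) and mice 1 and 2 (right). Points are mice, labelled by number, and lines are group means; tier 2 calls are the only panel in which the groups do not overlap.

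Of the substitution classes tested, T-to-C made up 11.0%, 0%, 28.6% and 20% in mice 3, 4, 5 and 6, against 30.7% and 33.0% in mice 1 and 2. The groups did not overlap, and the means of 14.9% ± 12.2 in mice 3 to 6 and 31.8% ± 1.66 in mice 1 and 2 differed by -16.9 points (exact permutation p = 0.133, adjusted p = 0.267). Without predicted genes, receptor genes and Sfi1 the T-to-C difference was -9.40 points. C-to-A averaged 21.3% ± 11.0 in mice 3 to 6 and 7.87% ± 3.85 in mice 1 and 2 (exact permutation p = 0.2, adjusted p = 0.267). The C-to-A difference of 13.4 points was 6.40 without predicted genes, receptor genes and Sfi1 and 8.07 among calls of 10% or more. Mice 3, 4 and 5, with 27.6%, 33.3% and 14.3%, lay above both mice 1 and 2, and mouse 6, with 10%, lay below mouse 2, which had 10.6%. C-to-T averaged 36.3% ± 12.1 in mice 3 to 6 and 23.2% ± 5.20 in mice 1 and 2 (exact permutation p = 0.2, adjusted p = 0.267). The C-to-T difference of 13.1 points was 5.63 among calls with a control fraction of 0 and 8.51 without mouse 6. The shares of mice 4, 5 and 6 rest on 12, 7 and 10 substitutions each, so 1 call moves them by many points. At this number of mice, none of the 8 differences is shown to exceed the spread between animals.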

How the data were processed

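Exomes of pancreatic tumours and matched controls were sequenced. Per the labels' protocols, capture used an Agilent SureSelect kit described as human, although the animals are mice. The tools BWA and GATK and the human build GRCh38 appear without version or role, per the submitters' processing notes. Per the file headers, calls came from Strelka. Positions were read as GRCm38: 68 of the 77 calls had their gene in the GRCm38.p6 RefSeq table, and all 68 lay inside its span. The sources used here do not say how the authors filtered candidate sites.

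The authors deposited tumour and control allele fractions as a fraction from 0 to 1, printed here as percent. The control column was read from its name. The quality score and the tier were used as deposited. Exon ranks were used only where the sheet had not turned them into dates.

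Groups and mouse numbers came from the labels. Empty lines were dropped and calls counted per tumour (Python 3.11.15, pandas 2.3.3). Shares have exact Clopper-Pearson 95% intervals (scipy 1.17.1). Group means per mouse were compared by a two-sided exact permutation test over 15 choices of mice (numpy 2.4.6), with Benjamini-Hochberg adjustment over 8 measures. The test was tested on simulated data. Codons were derived from the amino acid and base changes, and scored with BLOSUM62 (Biopython 1.88). Named genes were those with a protein-altering call of 10% or more, the highest such call of each tumour, truncating calls, listed genes, and genes called in more than 1 low-burden tumour or in 1 of them and in another mouse. Vps18, Prg4, Sp140, Itgb2, Vmn2r89, Nup133, Ganc, Calcoco2 and the genes introduced as further ones fall outside that rule and were chosen after their values were seen, as were the splice-region calls of C4a and Sycp2. The members, the gene lists and the tests were chosen with earlier results of these data known. Alternatives were other fraction minimums, call filters and leaving out each mouse.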

Additional observations from a re-analysis of the deposited data

How the results depend on the processing

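The 8 measures were recomputed with a fraction minimum of 5% or 10%, with control fractions of 0 only and in tier 1 only. They were also recomputed with sites once per mouse, without predicted genes, receptor genes and Sfi1, and without each mouse. The share with control reads was not recomputed with control fractions of 0, nor the tier 2 share in tier 1, which fix them. Of 94 alternatives, 91 kept the direction of the difference and 3 reversed it, with exact permutation p between 0.1 and 1. Keeping direction did not mean keeping size: over the filters the differences ran from 0.0121 to 11.4 points for control reads, 0.0059 to 4.49 for truncating calls, 6.40 to 14.9 for C-to-A, 5.63 to 14.97 for C-to-T, -18.9 to -9.40 for T-to-C and -17.9 to -3.87 for the median allele fraction. The tier 2 difference of 17.7 points became -3.47 points at a fraction of 10% or more. Leaving out each mouse gave -70.7 to 2.92 points for database identifiers, reversed without mouse 2, and -0.198 to 4.56 points for truncating calls, reversed without mouse 4. For the median allele fraction it gave -34.9 to -3.51 points, the smaller without mouse 2. The 77 calls became 27 at 10% or more and 47 without predicted genes, receptor genes and Sfi1, and leaving out a mouse gave 32 (without mouse 3) to 70. The 2 listed genes became 1 at 5% or more and at 10% or more, since Mtor stood at 3.80%, and leaving out a mouse gave 0 (without mouse 3) to 2. Fewer calls or mice follow from each filter's construction, and the causes of the reversals were not tested. No paired analysis was possible because mice 3 to 6 and mice 1 and 2 are different animals that share no pairing. Depth is unknown, so what it limits could not be measured. Of 22 groups over 11 measures, 0 held a tumour or mouse beyond Dixon's 95% limit.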
